A study of Mus musculus with 2 samples.

Results

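Conventional type 1 dendritic cells were described in mouse pancreatic tumours profiled by single-cell RNA sequencing, 1 control library and 1 library of mice lacking Porcn in Csf1r-expressing cells. Members were chosen by their own transcript counts. A cell was taken as a type 1 dendritic cell, and is called a member here, when its summed Xcr1 and Clec9a count was at least 2 unique molecular identifiers (UMIs, each 1 captured transcript molecule). It also had to carry at most 1 Ccr7 UMI, at most 1 UMI over Cd3d, Cd3e, Cd3g and Trac, and at most 10 UMIs over the keratins Krt8, Krt18 and Krt19. All members came from kept barcodes, which had 500 or more genes detected and a mitochondrial share of UMIs no higher than 15%. The rule found 108 members among 22472 kept barcodes, 33 of 11664 from control and 75 of 10808 from knockout tumours.

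The tumours grew from KPC pancreatic cancer cells placed in the pancreas, and were taken at day 21. Control mice were littermates of genotype Porcnfl/fl (WT), so they carried the floxed Porcn allele without the recombinase, and knockout mice were Csf1r-Cre;Porcnfl/fl (KO). Porcn encodes the enzyme that attaches a lipid to Wnt proteins, a step needed for their secretion, and the Csf1r promoter is active across macrophages, monocytes and some dendritic cells and their precursors, so that the deletion need not be restricted to macrophages. The implanted tumour cells came from outside the mice, and the labels give them no Porcn deletion. Live cells of 5 mice per genotype were pooled into 1 library each, and the series asked how loss of Wnt secretion by myeloid cells altered the tumour's other cells.

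Type 1 dendritic cells depend on the transcription factors IRF8 and BATF3 and sense dead cells through CLEC9A, a receptor for exposed actin filaments. They present antigen taken up from dying cells on MHC class I to CD8 T cells, a route called cross-presentation. XCR1 binds a chemokine made by NK cells and CD8 T cells, and in tumours these dendritic cells are known as producers of CXCL9 and interleukin 12.

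With 1 pooled library per genotype there was no replicate of either condition, and no difference below was tested. A level is the summed UMIs of a gene over the members of a library per 1000000 UMIs of those members (CPM), and a ratio is the log2 of the knockout level over the control level after adding 1 UMI scaled to each library's total. Bracketed ranges are exact 95% intervals for counting error only. They treat UMIs as independent and leave out the variation between mice and between cells, so they are too narrow as a measure of genotype. Control members held 303106 UMIs and knockout members 888125. Median depth per member was 7764 UMIs and 2519 genes for control members against 12087 UMIs and 3035 genes for knockout members, and the median mitochondrial share was 2.81% against 1.53%. Over all kept barcodes the order was the other way, with 12235 and 10321 UMIs. The part of depth and of cell quality in the results was not tested. The libraries shared 46 barcode sequences, none of them among members.

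Promoter sequences of interferon-stimulated genes are shown because 25 of the 27 measured genes of the type I interferon list had a log2 ratio above 0. The windows, from RefSeq on GRCm38.p6, reached from 250 bases before to 50 after each start site, and were searched on both strands for the core of the interferon-stimulated response element, GAAANNGAAA, which reads TTTCNNTTTC on the other strand. Overlapping matches were counted separately. The bases before the start site are printed 5′ to 3′ on the gene's strand, with matches in capitals, for Isg15 (chr4:156200819-156200968, minus strand), Slfn5 (chr11:82951852-82952101, plus strand) and Bst2 (chr8:71537473-71537622, minus strand).
Isg15: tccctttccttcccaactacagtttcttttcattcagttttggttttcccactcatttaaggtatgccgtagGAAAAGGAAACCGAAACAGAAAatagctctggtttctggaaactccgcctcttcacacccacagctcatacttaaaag
Slfn5: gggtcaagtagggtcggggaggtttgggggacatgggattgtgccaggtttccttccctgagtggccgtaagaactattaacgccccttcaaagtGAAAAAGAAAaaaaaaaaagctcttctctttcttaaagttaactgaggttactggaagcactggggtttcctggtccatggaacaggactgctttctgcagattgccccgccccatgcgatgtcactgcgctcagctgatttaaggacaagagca
Bst2: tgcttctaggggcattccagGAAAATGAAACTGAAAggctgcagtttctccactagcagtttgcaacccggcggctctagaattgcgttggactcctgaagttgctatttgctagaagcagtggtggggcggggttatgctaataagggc
Isg15 held 3 overlapping matches, Bst2 held 2 and Slfn5 held 1. A match was present in 3.44% of all 32851 windows and in at least 1 window of 3.99% of 27025 genes. Of the 40 type I interferon response genes found in the files, 30 had a window and 16 of these (53.3%) held a match. For the interferon gamma response list it was 12 of 17 genes with a window (70.6%), and for the proliferation list 0 of 22. Of the 10 type I interferon response genes whose level was at least 2-fold higher in knockout members, 8 had a window and 2 held a match, Isg15 and Slfn5. A match describes these letters and not a bound site.

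The genes used by the rule are given as a description, since they chose the members. Both Xcr1 and Clec9a were detected in 24 of 33 control members and 59 of 75 knockout members. Xcr1 alone was detected in 4 and 7 members, and Clec9a alone in 5 and 9. The median summed count was 4 UMIs for control and 7 for knockout members, and the highest was 24 and 26. Xcr1 (chr9:123852315-123862029 on GRCm38) stood at 386 and 475 CPM, and Clec9a (chr6:129408862-129424763) at 317 and 269 CPM. Barcodes with 2 or more UMIs that the exclusions removed numbered 7 and 16, of which 5 and 7 exceeded the keratin limit.

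At the threshold, 7 control and 15 knockout members had exactly 2 UMIs, and 27 control and 25 knockout barcodes with exactly 1 UMI fell outside. Naaa, a lysosomal lipid amidase typical of these cells, was detected in 100% and 80% of the members just inside and in 70.4% and 44% of the barcodes just outside. Wdfy4, which is required for cross-presentation, was detected in 85.7% and 80% just inside and in 55.6% and 44% just outside. Barcodes with both Naaa and Wdfy4 numbered 11 of 27 and 6 of 25 just outside.

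The identity genes outside the rule were high in the members and similar between libraries. Naaa was at 1653 CPM in control members and 1625 CPM in knockout members, a log2 ratio of -0.02 (-0.17 to 0.12), and was detected in 31 of 33 and 72 of 75 members. Wdfy4 was at 1396 and 1242 CPM (log2 ratio -0.17, -0.33 to 0.00). Irf8, the lineage's defining transcription factor, was at 1580 and 1650 CPM (log2 ratio 0.06, -0.09 to 0.21). In C1q barcodes, kept barcodes with at least 5 UMIs of C1qa, C1qb and C1qc, Naaa was at 120 and 82.5 CPM and Wdfy4 at 45.9 and 36.5 CPM. Ccr7 barcodes, with at least 2 Ccr7 UMIs and a UMI of Fscn1, carry mature dendritic cell transcripts. They had no limit on Xcr1 and Clec9a, so they can include mature type 1 dendritic cells, and Clec9a was at 16.6 and 55.5 CPM in them. Irf8 was at 1431 and 700 CPM in Ccr7 barcodes, of which control had 12. It thus did not separate the members from those cells in the control library. Itgae, the integrin CD103, was at 386 and 400 CPM in members and at 0 in C1q barcodes of both libraries. Cd209a barcodes, other dendritic cells with at least 2 Cd209a UMIs, numbered 4 in control and 18 in knockout. In them Naaa was at 140 and 280 CPM and Wdfy4 at 233 and 158 CPM. Flt3 was at 233 and 57.3 CPM in Cd209a barcodes against 188 and 195 CPM in members. Gcsam was at 195 and 199 CPM in members and at most 16.6 CPM in the Ccr7, C1q and Cd209a barcodes. The label of type 1 dendritic cells held for these markers in both libraries.

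**Figure D1:**
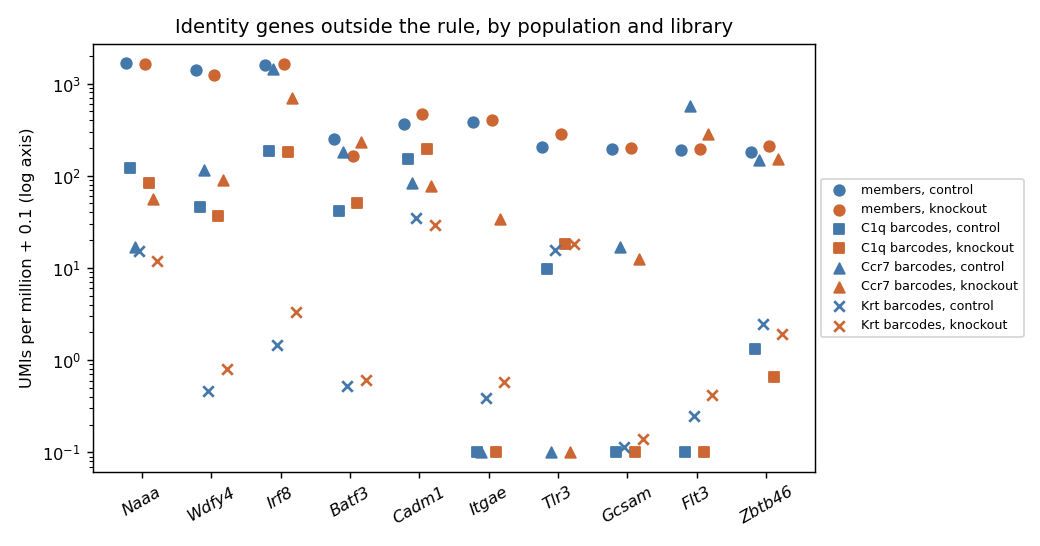
Levels of 10 genes outside the rule in CPM plus 0.1 on a log axis, for members (circles), C1q barcodes (squares), Ccr7 barcodes (triangles) and keratin-high Krt barcodes (crosses), in the control (blue) and knockout (orange) libraries. Naaa and Wdfy4 lie above 1000 CPM in members of both libraries and at or below 120 CPM in the other plotted populations. Cd209a barcodes are not plotted, and both genes were higher than 120 CPM in them.

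Some identity genes differed in level. Batf3, which sustains Irf8 expression in this lineage, was at 251 CPM in control members and 162 CPM in knockout members (log2 ratio -0.62, -1.04 to -0.21), and was detected in 24 of 33 and 55 of 75 members. Tlr3, a sensor of double-stranded RNA, was at 204 and 284 CPM (log2 ratio 0.47, 0.07 to 0.90). Cadm1, an adhesion molecule, was at 366 and 464 CPM (log2 ratio 0.34, 0.04 to 0.66). The 16 identity genes together had a median log2 ratio of 0.05, with summed levels of 8004 and 8108 CPM and no gene past 2-fold. Over all 6268 genes with at least 20 UMIs in members, the median was 0.03, 7.26% were at least 2-fold higher in the knockout library and 2.44% at least 2-fold lower. List counts below are read against these shares, and every list was chosen with results of these data known.

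Other genes were high in members relative to all other kept barcodes, as a description of the cells the rule selects. Xcr1 and Clec9a were 1057 and 689 times as high in members as in all other kept barcodes. Among genes the rule did not use, the ratio was 736 for Gpr141b, an orphan receptor, 678 for the septin gene Sept3, 651 for the receptor gene Gpr33, 601 for Gcsam and 529 for Tlr11, a sensor of microbial profilin. It was 214 for Itgae, 203 for Wdfy4, 184 for Zfp366, 176 for Dnase1l3, a DNA-degrading enzyme, and 169 for the serotonin receptor gene Htr7. Some of these were as high in Ccr7 barcodes. Zfp366 was at 185 and 224 CPM in members against 233 and 197 CPM in Ccr7 barcodes, Htr7 at 257 and 316 CPM against 449 and 173 CPM, and Dnase1l3 at 135 and 261 CPM against 66.6 and 244 CPM.

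Members made up 0.283% of kept control barcodes (0.195 to 0.397) and 0.694% of kept knockout barcodes (0.546 to 0.869), a ratio of 2.45 (1.61 to 3.81). The direction of this share depended on what it was taken of. Krt barcodes, with at least 20 keratin UMIs, were 63.1% of kept control barcodes and 45.8% of kept knockout barcodes. Among barcodes with at most 10 keratin UMIs, members were 1.01% and 1.43%, a ratio of 1.41 (0.925 to 2.2). Among barcodes that also had a UMI of the leukocyte gene Ptprc, 32 of 972 control barcodes (3.29%) and 71 of 3288 knockout barcodes (2.16%) were members, a ratio of 0.656 (0.426 to 1.03). The members were thus more frequent among all cells of the knockout library, and the interval included 1 among both narrower populations. How many cells of each kind the digestion released was not tested.

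**Figure D2:**
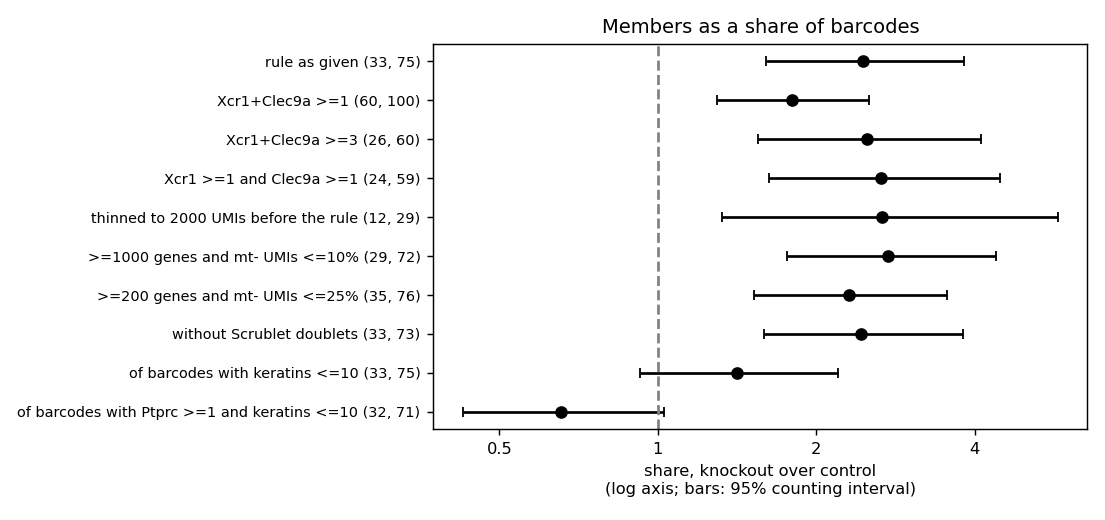
Share of members in the knockout library over that in the control library, on a log axis, for the rule and 9 alternatives, with members in the control and knockout libraries in brackets and 95% counting intervals as bars. The ratio lies between 1.8 and 2.74 over all kept barcodes, and is 1.41 and 0.656 when keratin-rich barcodes, or these and barcodes without Ptprc, leave the denominator.

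Other myeloid populations gave different ratios over all kept barcodes. Cd209a barcodes, with at least 2 UMIs of this marker of other conventional dendritic cells, numbered 4 and 18 (ratio 4.86, 1.6 to 19.7). Ccr7 barcodes numbered 12 and 37 (ratio 3.33, 1.70 to 7.01), and C1q barcodes 242 and 252 (ratio 1.12, 0.938 to 1.35). There were 0.136 control members per C1q barcode and 0.298 knockout members, but 2.75 and 2.03 members per Ccr7 barcode. The differences between these ratios were not tested.

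Transcription factors of dendritic cell fate lay mostly above 0, that is higher in knockout members. Of 16, 14 had at least 20 UMIs, with a median log2 ratio of 0.25, 4 at least 2-fold higher and none lower. Klf4, known for its part in another dendritic cell lineage, was at 26.4 CPM in control members, detected in 5 of 33, and at 82.2 CPM in knockout members, detected in 28 of 75 (log2 ratio 1.58, 0.58 to 2.90). Etv6, a repressor that supports the type 1 lineage, was at 330 and 569 CPM (log2 ratio 0.78, 0.47 to 1.11). Id2, needed for the lineage, was at 970 and 843 CPM (log2 ratio -0.20, -0.40 to 0.00). Zeb2, known as an opponent of the type 1 fate, was at 26.4 and 72.1 CPM in 3 and 10 members (log2 ratio 1.39, 0.38 to 2.72). Zeb2 fell below 20 UMIs when members with transcripts of other cells were left out. Relb was at 16.5 and 42.8 CPM (log2 ratio 1.29, 0.03 to 3.08), and Tcf4, typical of plasmacytoid cells, at 39.6 and 84.5 CPM (log2 ratio 1.06, 0.20 to 2.11).

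Receptors for growth factors and cytokines had a median log2 ratio of 0.26 over 15 of 17 genes. Flt3, the receptor through which these cells are maintained, was at 188 and 195 CPM (log2 ratio 0.05, -0.39 to 0.51), and Csf2ra, a GM-CSF receptor chain, at 149 and 161 CPM (log2 ratio 0.12, -0.38 to 0.63). Ifngr1, which binds interferon gamma, was at 119 and 191 CPM (log2 ratio 0.68, 0.16 to 1.25), whereas its partner chain Ifngr2 was at 106 and 99.1 CPM (log2 ratio -0.09, -0.69 to 0.54). Both type I interferon receptor chains were near equal, with Ifnar1 at 69.3 and 83.3 CPM and Ifnar2 at 145 and 132 CPM.

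Genes of antigen uptake and cross-presentation were divided in direction. Of 22 with enough UMIs, 11 lay above and 11 below 0, and the median log2 ratio was -0.02. Rab43, a trafficking GTPase used in cross-presentation, was at 402 CPM in control members and 601 CPM in knockout members (log2 ratio 0.58, 0.29 to 0.87), and was detected in 28 of 33 and 70 of 75. Ncf4, a subunit of the phagocyte oxidase, was at 172 and 249 CPM (log2 ratio 0.53, 0.09 to 1.0). Lnpep, an aminopeptidase of endosomes, was at 172 and 117 CPM (log2 ratio -0.54, -1.04 to -0.04), and Sec61b, a subunit of the translocation channel, at 653 and 481 CPM (log2 ratio -0.44, -0.69 to -0.19). Cd207, the C-type lectin langerin, had the widest difference, with 25 UMIs in 9 control members and 6 UMIs in 5 knockout members, or 82.5 and 6.76 CPM (log2 ratio -3.32, -5.18 to -2.29). A single control member held 48% of the control Cd207 UMIs. The dead-cell receptor Havcr2 was at 122 and 133 CPM and Cd36 at 162 and 196 CPM, with intervals that included 0.

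MHC class I genes were slightly higher as a group, with 23 of 24 measured, a median log2 ratio of 0.15 and summed levels of 11649 and 12561 CPM (ratio 1.08, 1.04 to 1.12). Tap1, which carries peptides into the endoplasmic reticulum, was at 224 and 339 CPM (log2 ratio 0.59, 0.21 to 1.0). Psmb10, an immunoproteasome subunit, was at 72.6 and 154 CPM (log2 ratio 1.07, 0.43 to 1.81), and the nonclassical H2-T22 at 42.9 and 106 CPM (log2 ratio 1.27, 0.46 to 2.27). H2-K1 was at 1066 and 1270 CPM (log2 ratio 0.25, 0.07 to 0.44), but at 0.03 when each member had equal weight. The genes of this list with intervals below 0 were 3 that help fold class I molecules. Pdia3 was at 818 and 550 CPM (log2 ratio -0.57, -0.80 to -0.35), Calr at 666 and 508 CPM (log2 ratio -0.39, -0.63 to -0.15) and Canx at 224 and 157 CPM (log2 ratio -0.51, -0.95 to -0.08). H2 genes are close paralogs, and reads of H2-Q4, H2-Q6, H2-Q7 and H2-T22 may be split between copies.

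MHC class II genes had 11 of 13 ratios above 0, none past 2-fold, and summed levels of 35760 CPM in control members and 41481 CPM in knockout members (ratio 1.16, 1.14 to 1.19). Cd74, the invariant chain, was at 12613 and 15253 CPM (log2 ratio 0.27, 0.22 to 0.33). H2-Aa was at 5925 and 6991 CPM (log2 ratio 0.24, 0.16 to 0.32), H2-Ab1 at 7304 and 8128 CPM (0.15, 0.09 to 0.22) and H2-Eb1 at 6100 and 6979 CPM (0.19, 0.12 to 0.27). H2-Oa, which tempers peptide loading, was at 92.4 and 156 CPM (log2 ratio 0.75, 0.17 to 1.40). Ciita, the activator of class II genes, was near equal, at 525 and 527 CPM (log2 ratio 0.01, -0.26 to 0.28). Per member the class II sum had a median of 329 UMIs per 10000 for control members (quartiles 228 to 393) and 398 for knockout members (quartiles 304 to 472), so that the members of the libraries overlapped widely.

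Costimulation and maturation genes had a median log2 ratio of 0.34 over 21 of 31 genes, with 4 at least 2-fold higher and 1 lower. Traf1, a signalling adaptor of receptors such as CD40, was at 42.9 CPM in control members, detected in 9 of 33, and at 137 CPM in knockout members, detected in 42 of 75 (log2 ratio 1.64, 0.85 to 2.63). Thinned to 2000 UMIs, Traf1 was detected in 9.38% of 32 and 18.9% of 74 members. Cd40, the receptor for help from CD4 T cells, had 2 UMIs in 2 control members and 48 UMIs in 14 knockout members, or 6.6 and 54.0 CPM (log2 ratio 2.75, 1.10 to 6.12), with 43.8% of the knockout UMIs in a single member. Cd83 was at 152 and 218 CPM (log2 ratio 0.52, 0.06 to 1.02), Cd86, a ligand of CD28, at 201 and 254 CPM (0.34, -0.08 to 0.77), and Cd274, which encodes PD-L1, at 42.9 and 63.1 CPM (0.54, -0.33 to 1.55). Ccl17, the list's gene past 2-fold lower, had 18 UMIs in 4 control members and 13 in 5 knockout members. The median of this list was 0.01 when each member had equal weight.

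Cytokine and chemokine genes are given with the number of members with a UMI, out of 33 control and 75 knockout members of unequal depth. Il12b, a subunit of interleukin 12, had 5 UMIs in 1 control member and 18 in 3 knockout members. Tnf was at 26.4 CPM in 2 control members and 63.1 CPM in 20 knockout members (log2 ratio 1.21, 0.18 to 2.54), and Ebi3 at 9.90 and 31.5 CPM in 3 and 19 members (log2 ratio 1.52, -0.02 to 4.03). The shares of members with Tnf or Ebi3 were not compared at equal depth. Cxcl9, which attracts T cells through CXCR3, was at 152 CPM in 13 of 33 control members and 311 CPM in 32 of 75 knockout members (log2 ratio 1.03, 0.58 to 1.52). The 3 members with most Cxcl9 held 63.0% of its control UMIs and 51.8% of its knockout UMIs. Without members that carried transcripts of other cells the Cxcl9 log2 ratio was 1.55, and when every member was thinned to 2000 UMIs, Cxcl9 was detected in 25% of 32 control members and 18.9% of 74 knockout members. The level of Cxcl9 was therefore higher in the knockout library, whereas a higher share of members with it was not detectable at this depth. Cxcl16, a membrane-bound chemokine, was at 142 and 168 CPM (log2 ratio 0.24, -0.26 to 0.77) in 15 and 53 members.

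Of the other chemokines, Cxcl10 had 1 and 28 UMIs, with 71.4% of the latter in 1 member, and all 28 knockout UMIs of Ccl8 lay in 1 member. The chemokine list had a median log2 ratio of 0.76 over 10 of 17 genes, with 5 at least 2-fold higher and 1 lower, and the median was 0.14 with equal weight per member. Per member its median was 3.09 UMIs per 10000 for control members and 2.21 for knockout members, and 6 and 14 members had none. Receptors of trafficking had a median of 0.25 over 7 genes. Cxcr3 was at 52.8 and 77.7 CPM (log2 ratio 0.54, -0.24 to 1.44), and Ccr2, a receptor of monocytes and precursor dendritic cells, at 165 and 108 CPM (log2 ratio -0.60, -1.12 to -0.09). The Ccr2 ratio was -0.01 without members carrying transcripts of other cells.

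Sensors of nucleic acids and microbial patterns showed no gene past 2-fold among 12 measured, and a median log2 ratio of 0.15. Unc93b1, which escorts endosomal Toll-like receptors, was at 323 and 331 CPM, and Tmem173, which encodes STING, at 49.5 and 45.0 CPM. Aim2, a sensor of cytosolic DNA, was at 125 and 170 CPM (log2 ratio 0.43, -0.08 to 0.99).

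Genes of the type I interferon response were higher in knockout members. Of 27 with enough UMIs, 25 had a ratio above 0, 10 (37.0%) were at least 2-fold higher and none 2-fold lower, against 7.26% and 2.44% of all genes, and 14 had an interval above 0. Their median log2 ratio was 0.76, and their summed level was 2316 CPM in control members and 3795 CPM in knockout members (ratio 1.64, 1.51 to 1.78). Irf7, the transcription factor that amplifies interferon production, was at 52.8 CPM in 11 control members and 153 CPM in 40 knockout members (log2 ratio 1.51, 0.79 to 2.38). Oasl1, which restrains Irf7 translation, was at 16.5 CPM in 4 control members and 91.2 CPM in 28 knockout members (log2 ratio 2.35, 1.19 to 4.13). Slfn5 was at 72.6 and 182 CPM in 12 and 47 members (log2 ratio 1.31, 0.68 to 2.04), and Isg15, a ubiquitin-like protein, at 46.2 and 110 CPM in 9 and 27 members (log2 ratio 1.23, 0.44 to 2.18). The promoters of Slfn5 and Isg15 are printed above, as is that of Bst2, the tethering factor tetherin, at 152 and 216 CPM (log2 ratio 0.51, 0.04 to 1.01). The windows of Irf7 and Oasl1 held no match and are not printed.

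Ifi44 and Isg20 were absent from control members. Ifi44 had 50 UMIs in 25 knockout members, at least 5.69-fold higher against a floor of 3 UMIs over all control members, and Isg20, an exonuclease, had 28 UMIs in 12 knockout members, at least 3.19-fold higher against that floor. These bounds leave out the counting error of the knockout UMIs, and the intervals of the log2 ratio began at 2.16 and 1.28. Ifi27l2a was at 119 CPM in 7 control members and 284 CPM in 38 knockout members (log2 ratio 1.25, 0.75 to 1.8). Stat2, a transducer of the receptor signal, was higher by less, at 89.1 and 145 CPM (log2 ratio 0.69, 0.10 to 1.36). Trim30a was at 139 and 236 CPM (log2 ratio 0.76, 0.29 to 1.28). Samd9l and the sensor gene Ifih1 were the genes below 0, at -0.30 (-0.94 to 0.36) and -0.13 (-1.29 to 1.15).

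**Figure D3:**
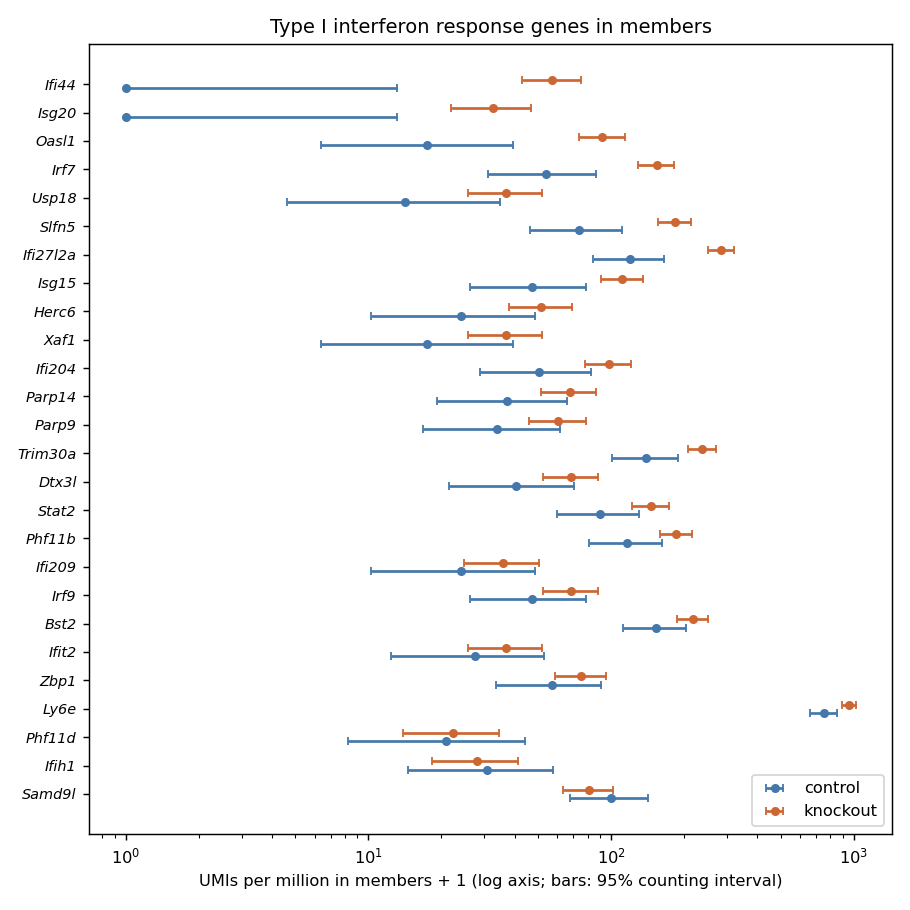
Levels of 26 of the 27 type I interferon response genes with at least 20 UMIs in members, in CPM plus 1 on a log axis, for control (blue) and knockout (orange) members, with 95% counting intervals. The knockout level is the higher for all plotted genes but Samd9l and Ifih1, and Ifi44 and Isg20 have no control UMI.

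Numbers of members with a UMI come from cells of unequal depth. After thinning to 2000 UMIs, Oasl1 was detected in 3.13% of 32 control and 18.9% of 74 knockout members, Irf7 in 9.38% and 16.2%, Isg15 in 9.38% and 12.2%, Slfn5 in 15.6% and 21.6%, and Ifi27l2a in 18.8% and 24.3%, with overlapping intervals for each. Per member, the list took a median of 18.9 UMIs per 10000 in control members (quartiles 15.2 to 26.8, range 0 to 97.3) and 30.6 in knockout members (quartiles 22.9 to 44.7, range 6.04 to 127). The upper quartile of control members lay below the knockout median, although the ranges overlapped. The median log2 ratio of the list was between 0.48 and 0.79 in the 10 alternatives, lowest without cycling members. In C1q barcodes the same 27 genes had a median log2 ratio of 0.72, with 9 at least 2-fold higher, a difference of similar size in macrophage-type cells. The genes of the list named above were also higher in knockout than in control Krt barcodes. There Irf7 was at 105 and 189 CPM, Ifi27l2a at 114 and 303 CPM and Slfn5 at 6.94 and 12.9 CPM. In the 12 and 37 Ccr7 barcodes, 14 genes of the list could be compared, with a median log2 ratio of 0.28, 3 at least 2-fold higher and 2 lower, against 0.79 for the same genes in members. Irf7 was at 133 CPM in control Ccr7 barcodes and 15.4 CPM in knockout ones. Whether the shift differed between the populations was not tested. Many of these genes are expressed by other cells of the tumour: the median knockout member level was 65.4% of that over all kept knockout barcodes and the lowest was 11.7%. As a gauge of free RNA, 6 tumour genes outside the rule were summed, Epcam, Krt7, Cldn4, Cdh1, Tff1 and Lgals4. In members they reached 9.06% of their level over all kept control barcodes (4.53 to 16.2) and 2.01% of that over all kept knockout barcodes (0.651 to 4.68). Epcam made up 29.7 of their 36.3 CPM in control members and 4.50 of 5.63 CPM in knockout members. In Krt barcodes Epcam was at 7.02 and 22.5 CPM. It was thus higher in control members than in control Krt barcodes, and the control share is not a gauge of free tumour RNA. The knockout share rested on 5 UMIs, mostly of Epcam, and is not a firm gauge either.

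Interferon gamma response genes had a median log2 ratio of 0.47 over 20 genes, with 6 at least 2-fold higher and none lower. Iigp1, an immunity-related GTPase, was at 148 CPM in 10 control members and 238 CPM in 35 knockout members (log2 ratio 0.67, 0.21 to 1.18). The transcription factor Irf1 was at 89.1 and 137 CPM (log2 ratio 0.62, 0.01 to 1.28). Gbp2b was at 26.4 and 65.3 CPM (log2 ratio 1.25, 0.23 to 2.58), with 48.3% of knockout UMIs in 1 member, and the related Gbp2 at 52.8 and 32.6 CPM (log2 ratio -0.67, -1.62 to 0.29). The list's median was 0.12 when each member had equal weight and 0.23 in C1q barcodes. It was -0.53 over the 10 genes that could be compared in Ccr7 barcodes, where 2 were at least 2-fold higher and 4 lower, against 0.51 for these genes in members.

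**Figure D4:**
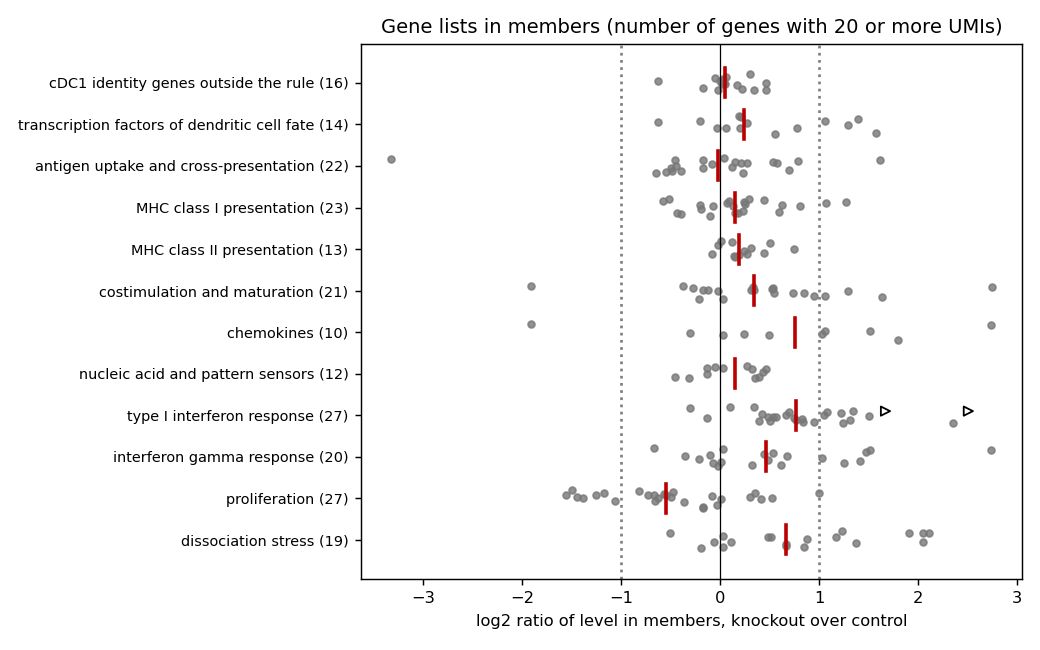
Log2 ratios of knockout over control level in members for 12 gene lists, with 1 point per gene of at least 20 UMIs, red bars at list medians and dotted lines at 2-fold. Open triangles place Ifi44 and Isg20, which had no control UMI, at their lower bounds. The type I interferon median is 0.76, and the proliferation median is -0.55.

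Proliferation genes were lower in knockout members by summed level, 6097 CPM against 4510 CPM (ratio 0.740, 0.700 to 0.782). Of 27 genes, 21 had a ratio below 0, 7 were at least 2-fold lower and 1 higher, and the median log2 ratio was -0.55. All 7 lower genes but Stmn1 act in DNA synthesis. Pcna, the sliding clamp of DNA polymerase, was at 234 CPM in 15 control members and 82.2 CPM in 29 knockout members (log2 ratio -1.49, -2.0 to -1.02). The replicative helicase subunits Mcm3, Mcm4, Mcm6 and Mcm7 had ratios of -1.06, -1.17, -1.55 and -1.44, on 12 to 19 control UMIs each. Stmn1, which regulates microtubules, was at 409 and 155 CPM (log2 ratio -1.39, -1.76 to -1.03), and Tyms, which makes thymidylate, at 69.3 and 28.2 CPM (log2 ratio -1.25, -2.19 to -0.39).

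Genes of mitosis were mixed in direction. Cdk1 was at 52.8 and 51.8 CPM (log2 ratio -0.03, -0.88 to 0.89), Cenpf at 69.3 and 69.8 CPM (0.01, -0.72 to 0.80), Ube2c at 95.7 and 128 CPM (0.42, -0.17 to 1.06) and Mki67 at 214 and 135 CPM (-0.66, -1.11 to -0.21). The number of cycling members, with at least 2 UMIs of Mki67 and Top2a, was 6 of 33 control members (18.2%, 6.98 to 35.5) and 18 of 75 knockout members (24.0%, 14.9 to 35.3), and these intervals overlapped. The 6 control cells held 35% of all control member UMIs, and 1 of them held 38.5% of the Mki67 UMIs. Cycling members had proliferation sums of 14158 and 10307 CPM, and the remaining members 1756 and 1414 CPM. With equal weight per member the list's median log2 ratio was -0.06, and the median member had 14.9 and 13.6 proliferation UMIs per 10000. The lower summed level thus depended on how the members were weighted. The type I interferon sum was 1998 and 3721 CPM in cycling members and 2487 and 3834 CPM in the others, higher in the knockout library in both.

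**Figure D5:**
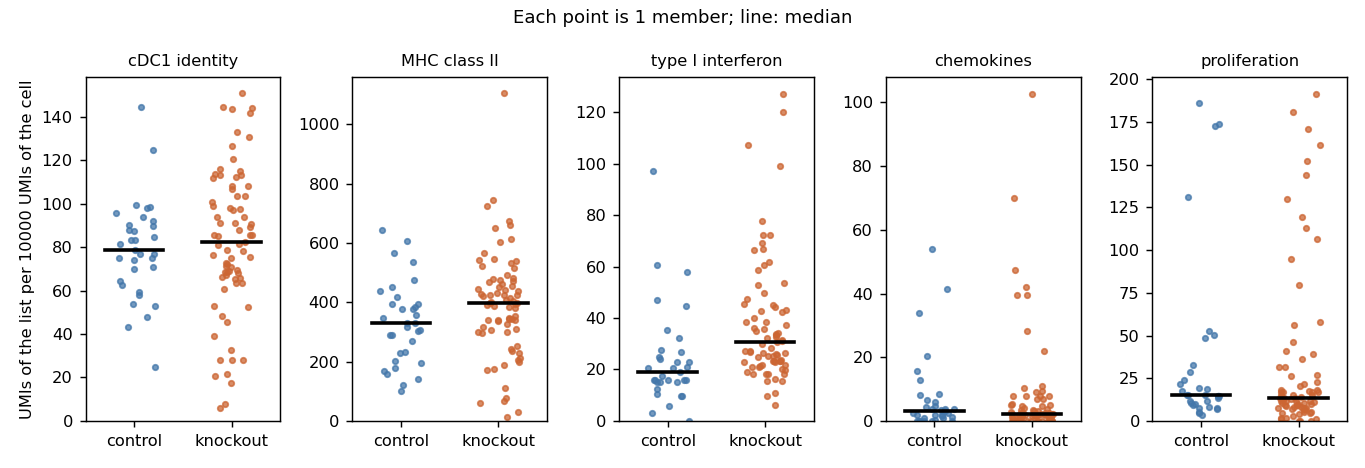
UMIs of 5 gene lists per 10000 UMIs of each member, with 1 point per member and a line at the median, for 33 control (blue) and 75 knockout (orange) members. Type I interferon medians are 18.9 and 30.6, and proliferation is high in few members of either library.

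Survival genes had a median log2 ratio of 0.08 over 11 genes. Cflar, an inhibitor of caspase 8, was at 26.4 and 60.8 CPM (log2 ratio 1.15, 0.12 to 2.49), and Bcl2a1b, a survival protein, at 307 and 423 CPM (log2 ratio 0.46, 0.13 to 0.81). Bcl2a1b and Bcl2a1d are near-identical copies, so their counts are uncertain.

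The targeted gene could not be read in these cells. Porcn had 0 UMIs in the members of both libraries, where the floor of 3 UMIs stands at 9.90 CPM in control and 3.38 CPM in knockout members. The counting intervals of these 0 counts reached 12.2 and 4.15 CPM. Over all kept barcodes Porcn was at 7.22 and 4.95 CPM. In C1q barcodes Porcn had 6 UMIs in those of control mice and 0 in those of knockout mice. The transcripts were 3′ tags, so a loss of upstream exons need not have removed them. Csf1r, whose promoter drives the recombinase, had 3 UMIs in 2 control members and 18 in 5 knockout members, 9.90 and 20.3 CPM, against 255 and 278 CPM in C1q barcodes. The 9 macrophage markers, Csf1r among them, kept 6 and 24 UMIs in all when members with transcripts of other cells were left out.

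Wnt signalling genes were sparse in members. Of 33 receptors and pathway genes, 9 had at least 20 UMIs, with a median log2 ratio of -0.21 and summed levels of 488 and 495 CPM. Lrp6, a Wnt co-receptor, was at 46.2 and 16.9 CPM (log2 ratio -1.37, -2.60 to -0.29), its relative Lrp5 at 36.3 and 18.0 CPM (-0.95, -2.21 to 0.24) and Ctnnb1, which encodes beta-catenin, at 75.9 and 54.0 CPM (-0.48, -1.24 to 0.29). Wnt target genes summed to 340 CPM (277 to 412) and 337 CPM (300 to 377). Of the 16, only 3 had at least 20 UMIs and 7 had none. Nearly all of the sum came from Ccnd1, cyclin D1, at 208 and 216 CPM, Cd44 at 109 and 93.5 CPM and Myc at 19.8 and 15.8 CPM. Axin2 was at 0 and 1.13 CPM, so the near-equal sums do not read Wnt output in these cells. The 19 Wnt ligands had 1 UMI in control members and 16 in knockout members, 3.30 and 18.0 CPM. Leaving out members with transcripts of other cells left 1 and 8 ligand UMIs. Ligands were at 41.0 and 4.43 CPM in C1q barcodes and at 134 and 90.6 CPM in Krt barcodes.

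Genes of the dissociation and heat stress response were, like the interferon genes, higher in knockout members. Of 19, 16 had a ratio above 0 and 7 were at least 2-fold higher, and the median log2 ratio was 0.67, with 0.59 in C1q barcodes. The immediate early gene Jun was at 198 CPM in 16 control members and 449 CPM in 49 knockout members (log2 ratio 1.18, 0.79 to 1.6), and Fos at 119 and 220 CPM (0.88, 0.37 to 1.44). Hspa1a, an inducible chaperone, was at 115 and 274 CPM (log2 ratio 1.23, 0.73 to 1.8), whereas Hsp90aa1 was at 571 and 403 CPM (-0.50, -0.77 to -0.23). The part of this response in the differences of Traf1, Tnf, Klf4, Cd83 and the other genes above was not tested. Apoe, a lipid carrier of macrophages, was at 158 and 553 CPM (log2 ratio 1.79, 1.37 to 2.26) in 5 and 15 members, with 72.9% of the control UMIs in 1 member, and at 0.00 among members with at least 3 rule UMIs.

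Macrophage transcripts, and the fibroblast transcripts of the knockout library, were concentrated in few members. In the control library, 14 fibroblast UMIs lay in 10 members, with at most 3 in 1 member. Monocyte markers were found in 23 of 33 control and 66 of 75 knockout members. The summed level of 9 macrophage markers was 581 and 1477 CPM, of 6 fibroblast markers 46.2 and 475 CPM, and of 7 monocyte markers 601 and 1054 CPM. Of the monocyte sums, 310 and 343 CPM were Plac8, which was at 972 and 1056 CPM in Krt barcodes and so was not specific to monocytes here. Ccr2 gave 165 and 108 CPM and Lyz2 99.0 and 449 CPM. Ly6c2 was at 9.90 and 30.4 CPM, Vcan at 0 and 5.63 CPM and Chil3 at 0 and 3.38 CPM. Members with at least 5 C1q UMIs, 3 Col1a1 and Col3a1 UMIs or 4 keratin UMIs numbered 6 among control members and 8 among knockout members, and none passed the limits set for neutrophil or B cell genes. Without them the macrophage sums were 23.3 and 30.2 CPM, the fibroblast sums 50.4 and 26.4 CPM and the monocyte sums 563 and 644 CPM. The type I interferon median log2 ratio was then 0.70, Traf1 had 1.51 and Klf4 1.30. Markers of plasmacytoid cells summed to 201 and 333 CPM, in 25 and 63 members, although Siglech, their defining marker, had 0 and 7 UMIs. Most of these sums was Bst2, at 152 and 216 CPM and also in the type I interferon list, and Tcf4, at 39.6 and 84.5 CPM. Plasma cell markers summed to 82.5 and 82.2 CPM in 14 and 41 members, of which Xbp1 made up 69.3 and 65.3 CPM. Cd209a had no UMI in members, but the 9 markers of Cd209a-type dendritic cells summed to 406 and 405 CPM, in 18 and 61 members. Of these sums Ccr2 gave 165 and 108 CPM, Mgl2 139 and 172 CPM and Clec10a 39.6 and 54.1 CPM. T cell markers had 0 and 6 UMIs.

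Genes were also named by size of ratio, whether listed or not, among those detected in at least 10% of the members of the higher library, with no member holding over 25% of the UMIs there, a counting interval that excluded equality and a level no lower than over all kept barcodes. Of 260 higher and 197 lower genes that met these conditions, the 12 most extreme in each direction are given. Zfpm2, a cofactor of GATA factors, had 14 UMIs in 4 control members and 264 UMIs in 43 knockout members, 46.2 and 297 CPM (log2 ratio 2.64, 1.91 to 3.58). Zfpm2 was at 142 and 146 CPM over all kept barcodes. Nr4a2, an immediate early nuclear receptor, had 0 and 25 UMIs, Slc35f6 0 and 21, and Stx11, a syntaxin of secretory granules, 0 and 20. Against the floor of 3 control UMIs these are at least 2.84-fold, 2.39-fold and 2.28-fold higher, and with counting error the intervals of the log2 ratio began at 1.10, 0.83 and 0.75. Insyn2b was at 3.30 and 34.9 CPM (log2 ratio 2.88, 0.82 to 8.75) in 1 and 25 members, and the co-receptor gene Cdon at 6.6 and 47.3 CPM (2.57, 0.90 to 5.93) in 2 and 28 members. Dennd1c, Nbas, Slc41a2, Zfp810, Zfp869 and Oasl1, which is also in the type I interferon list, complete the set, each with at most 5 control UMIs.

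Lower in knockout members were 3 genes of DNA replication and its chromatin. Lig1, a DNA ligase, was at 99.0 and 20.3 CPM (log2 ratio -2.2, -3.22 to -1.40), Clspn, a replication checkpoint protein, at 56.1 and 13.5 CPM (-1.93, -3.25 to -0.90) and Uhrf1, which maintains DNA methylation, at 56.1 and 15.8 CPM (-1.73, -2.96 to -0.72). Each was detected in at most 10 control members. Plxdc1, by contrast, was detected in 18 of 33 control and 17 of 75 knockout members, at 72.6 and 21.4 CPM (log2 ratio -1.69, -2.73 to -0.81), and stood at 1.38 and 1.48 CPM over all kept barcodes. Phf20, a chromatin reader, was at 99.0 and 32.7 CPM (log2 ratio -1.55, -2.39 to -0.81). Scamp3, Samd1, Sec24c, Kif16b, Mrpl49, Atad3a and Ipo5 had ratios between -1.89 and -1.55 on 12 to 16 control UMIs.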

How the data were processed

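The deposited matrices hold UMI counts per gene and cell barcode, which the authors made with Cell Ranger without normalization. The file headers give version 8.0.0, whereas the submitters' processing notes give 3.1.3 and mm10. The 32285 genes in each matrix were used as listed, and GENCODE M21 (GRCm38) gave positions for 32235 of their identifiers. Every sample column had a label.

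Barcode filter and membership rule are given in the text. Scrublet, run through scanpy 1.11.5 at an expected rate of 0.08, called 148 kept control barcodes (1.27%) and 341 kept knockout barcodes (3.16%) as doublets, 0 and 2 of them members, and these were removed as an alternative only. Member UMIs were summed per library, and genes with at least 20 UMIs over both libraries were compared with a pseudocount of 1 UMI. Proportions have exact Clopper-Pearson intervals, CPM exact Poisson intervals and ratios exact conditional intervals, all at 95% and for counting error only. With 1 library per group, no p-value is given and genes are counted past 2-fold. Genes named by size of ratio followed the rule stated with them. The lists also cover cholesterol and lipid handling (median log2 ratio 0.27 over 11 genes) and genes shared by dendritic cell subsets (0.07 over 8). The members and lists were chosen with earlier results of these data known. The calculations were tested on simulated data. Python 3.11.15, numpy 2.4.6, scipy 1.17.1, pandas 2.3.3 and matplotlib 3.10.9 were used. Alternatives changed the rule's threshold, the cell filter, the denominator, the depth, the low-count filter, the pseudocount, the centring, the weight of members and the removal of doublets, cycling members and members with transcripts of other cells. Single genes of some lists are not reported here by name, although they are part of the list counts.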

Additional observations from a re-analysis of the deposited data

How the results depend on the processing

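No paired analysis was possible because each genotype has 1 library, and for the same reason no replicate could be left out. The share of members, 2.45 times as high in the knockout library over all kept barcodes, was 1.41 times as high among barcodes with at most 10 keratin UMIs and 0.656 times as high among those that also had a Ptprc UMI. The difference lies in the denominators, since the members stayed the same but for those without Ptprc. Against 455 genes at least 2-fold higher and 153 lower at a minimum of 20 UMIs, a minimum of 10 gave 874 and 327, and a minimum of 50 gave 140 and 27. These counts follow the number of genes tested, 8294 and 3431 in place of 6268. All other values of these counts lay within 1.5 times. Of 2803 alternative values for 301 single genes, 63 left their counting interval, 28 of them with equal weight per member and 21 without cycling members. Among these, Id2 went from -0.20 to 0.13 with equal weight per member. With equal weight, the median log2 ratio went from -0.55 to -0.06 for proliferation, from 0.47 to 0.12 for the interferon gamma response, from 0.34 to 0.01 for costimulation and from 0.76 to 0.14 for chemokines. The type I interferon median was 0.62.

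The number of members, 33 and 75, and the 303106 UMIs of the control members limit every level. A count of 0 in control members has a counting interval that reaches 12.2 CPM. Differences between the pools of mice, in depth and in stress transcripts cannot be told apart from the genotype.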
